A study of Mus musculus with 16 samples.

Results

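Of the 55385 genes in the deposited count table, 31 that encode subunits of glutamate and GABA receptors are described here. They are a chosen set of these subunit genes, taken by gene symbol: 4 AMPA, 6 NMDA and 4 kainate receptor subunits, 6 metabotropic glutamate receptors, 9 GABA-A receptor subunits and the 2 GABA-B receptor subunits. The kainate subunit gene Grik1, which lies in the segment that Dp16 mice carry in an extra copy, was left out of the 31 and is given apart. All 31 symbols were found, and all 31 passed the filter on low counts together with 17555 genes in all. The 16 libraries were made from poly-A RNA of the brain cortex of mice at 9 months of age, with 4 libraries (2 females and 2 males) in each of 4 groups. The groups were wild-type C57BL/6J mice, Dp16 mice, 5xFAD mice and 5xFAD-Dp16 mice, which carry both genotypes. No group was treated, and the labels give the C57BL/6J background for the wild-type mice alone. Dp16 mice carry a duplication of a stretch of mouse chromosome 16 whose genes have their counterparts on human chromosome 21. 5xFAD mice carry human transgenes with familial Alzheimer's disease mutations under the neuronal Thy1 promoter. The labels say nothing of litters, cages or cohorts, so p-values measure the spread between these samples.

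Glutamate is the main excitatory transmitter of the cortex and GABA the main inhibitory one. AMPA, NMDA and kainate receptors are cation channels and GABA-A receptors chloride channels, each built of several subunits, so the choice of subunits sets how fast, how long and where a cell responds. Metabotropic glutamate receptors and GABA-B receptors act through G proteins. Changes in the balance of these receptors are widely studied in models of Alzheimer's disease and of trisomy 21.

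Library totals ran from 16874481 to 22912168 counts. The sex label matched in 16 of 16 libraries. Thy1, whose promoter drives the transgenes, stood at 736 to 1051 CPM in the 8 libraries without the transgenes and at 1542 to 2205 in the 8 with them (CPM, the counts scaled to a common library total after TMM normalization). The dependence of levels on gene length varied between libraries, and wild-type replicate 3 stood apart: its length slope was −0.43 against 0.00 to 0.27 in the other wild-type libraries. The length slope of a library is the regression coefficient of its log2 CPM deviation from the mean on log2 gene length. The tissue label was checked against markers of 10 cell types, and none of the lists had a marker at 0. The summed level of 5 excitatory neuron markers was 1521 to 4012 CPM over all libraries, and that of 3 cerebellar granule cell markers was 2.79 to 10.3 CPM. Summed marker levels, here and below, and the length slope use CPM of the counted library total without TMM. The sums are therefore on another scale than the CPM of single genes. Markers of tissue next to cortex varied widely: 6 genes of striatal projection neurons summed to 363 to 1064 CPM and 4 choroid plexus genes to 7.37 to 2319 CPM.

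Per gene length, the GABA-B subunit Gabbr1 and the obligatory NMDA subunit Grin1 were the most abundant of the 31. Levels between genes are compared here on the deposited RPKM scale (reads per kilobase of gene, scaled to the library total), as mean ± SD over the 16 libraries. Gabbr1 stood at 101 ± 17.3 RPKM and its partner Gabbr2 at 26.5 ± 9.24. Among AMPA subunits Gria1 led at 58.1 ± 9.60 RPKM, ahead of Gria2 at 28.3 ± 3.22, Gria3 at 18.3 ± 3.07 and Gria4 at 17.4 ± 2.53, the last pair being closer than their SD. Grin1 stood at 76.9 ± 23.6 RPKM and no other NMDA subunit came near it, with Grin2c next at 7.62 ± 2.76. Grin2a at 3.33 ± 1.31 and Grin2b at 3.27 ± 1.28 did not differ beyond their spread, and Grin3a at 1.87 ± 0.44 and Grin2d at 1.13 ± 0.40 were lowest. The place of Grin2c rests on division by gene length. In CPM, Grin2b (80.5 ± 30.3) and Grin2a (49.5 ± 18.6) had higher means than Grin2c (38.1 ± 13.2). Grik5 led the kainate subunits at 29.8 ± 8.54 RPKM, while Grik2 (4.51 ± 0.52), Grik3 (3.84 ± 1.43) and Grik4 (2.39 ± 0.60) were all below it, and Grik2 and Grik3 overlapped. Grm3 led the metabotropic receptors at 28.4 ± 4.10 RPKM, followed by Grm5 at 12.7 ± 2.62, Grm7 at 8.23 ± 1.07, Grm2 at 4.04 ± 1.70, Grm8 at 3.42 ± 0.89 and Grm4 at 2.48 ± 0.89. The order of the lowest 3 lay within their spread. Among GABA-A subunits Gabrd (50.3 ± 6.98 RPKM), Gabra3 (39.7 ± 4.59) and Gabra4 (34.1 ± 7.09) were highest and Gabrg3 (1.04 ± 0.32) lowest. Between them stood Gabra5 at 21.1 ± 4.68, Gabrb2 at 18.4 ± 3.94, Gabrg1 at 10.6 ± 3.25, Gabra2 at 7.13 ± 0.98 and Gabrb1 at 4.09 ± 1.03, of which Gabra5 and Gabrb2 differed by less than their SD.

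**Figure D1:**
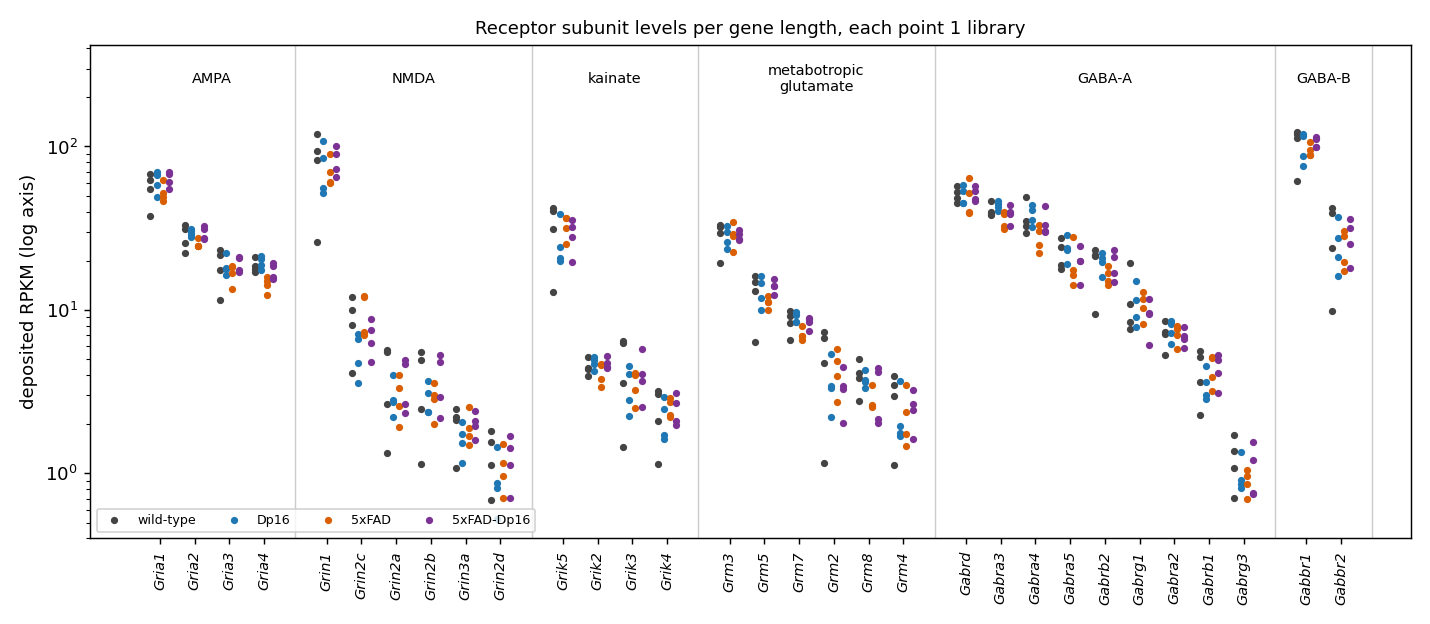
Deposited RPKM (log axis) of the 31 receptor subunit genes, ordered within each family by the mean over 16 libraries, with 1 point per library coloured by genotype group. The groups overlap for nearly every gene, and the lowest point of many columns is wild-type replicate 3, as for Grin1 and Gabbr2.

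No subunit gene was called in any comparison when each gene was tested with edgeR and adjusted over all 17555 genes. The question of each comparison was whether the duplication, the transgenes or their combination changed expression, and a gene was called at an adjusted p under 0.05. For Dp16 against wild-type 0 of 31 were called, where 0.0057% of all genes tested were. For 5xFAD against wild-type 0 were called with a background of 1.52%, and for 5xFAD-Dp16 against wild-type 0 with a background of 0.501%. Against 5xFAD the double genotype gave 0 with a background of 0.0057%, and against Dp16 it gave 0 with a background of 0.387%. The interaction of the genotypes gave 0 members and 0 genes of all tested. Pooling libraries so that 8 stood against 8 gave 0 for the Dp16 effect (background 0.0968%) and 0 for the 5xFAD effect (background 2.18%). DESeq2, limma-trend on RPKM and each fit with 1 library left out also called 0 members in all comparisons.

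At an unadjusted p under 0.05, the members that differed were all lower in the mutant group. They were Grin2c in Dp16 against wild-type (1 of 31; 0.906% of all genes were lower at that threshold) and in the pooled Dp16 effect (1 of 31; 2.27%). In 5xFAD against wild-type they were Gria4, Grm7, Grm8 and Gabra4 (4 of 31; 1.91% of all genes). In the pooled 5xFAD effect they were these 4 and Gabra3 (5 of 31; 2.48% of all genes). In 5xFAD-Dp16 against wild-type, against 5xFAD and against Dp16, and in the interaction, the number was 0 of 31, with 4.52%, 3.59%, 3.92% and 1.36% of all genes in either direction.

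The direction of most members was the same in the comparison of 5xFAD with wild-type cortex. In 5xFAD against wild-type 27 of 31 were below 0 on the log2 scale, with a median of −0.21 and a range of −0.51 to 0.11, against a median of −0.055 over all genes, of which 41.2% were above 0. Adding Dp16 to 5xFAD gave 23 of 31 above 0 (median 0.17; all genes 0.01, 50.9% above 0), a comparison that shares the 5xFAD libraries with the one before. On the Dp16 background the transgenes showed no such shift: 5xFAD-Dp16 against Dp16 had 17 of 31 above 0. The median there was 0.01 (all genes 0.01, 51.2% above 0). The interaction term had 28 of 31 above 0 with a median of 0.17 (all genes 0.04, 57.1% above 0). In Dp16 alone the median was −0.08 with 11 of 31 above 0 (all genes −0.03, 42.9% above 0). These medians moved with single libraries. Without wild-type replicate 1 the median of 5xFAD against wild-type was −0.06, and without wild-type replicate 3 it was −0.28 with 30 of 31 below 0. The interaction median was 0.10 without wild-type replicate 1 and 0.34 without wild-type replicate 3, and the median of 5xFAD-Dp16 against 5xFAD was 0.04 without 5xFAD-Dp16 replicate 3. The Dp16 median ran from −0.14 without wild-type replicate 3 to −0.0041 without Dp16 replicate 4. Once the length slope was fitted it was 0.0035 with 16 of 31 above 0 (50.9% of all genes). With that covariate the medians were −0.18 for 5xFAD against wild-type, 0.13 for 5xFAD-Dp16 against 5xFAD and 0.12 for the interaction. The interaction then had 24 of 31 above 0, against 50.9% of all genes. In 5xFAD-Dp16 against Dp16 the median was then −0.06 with 7 of 31 above 0 (all genes −0.01, 47.1% above 0).

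Markers of cell types moved with these comparisons. The 5 excitatory neuron markers summed to 1521 to 4012 CPM (median 3542) in wild-type and to 2360 to 3833 CPM (median 2915) in 5xFAD, and 5 of 5 were below 0 in 5xFAD against wild-type, 0 of them called. The 5 oligodendrocyte markers summed to 6958 to 8139 CPM (median 7184) in wild-type and to 7680 to 9747 CPM (median 9070) in 5xFAD, with 4 of 5 above 0 and 0 called. Medians of the summed astrocyte markers were 1545 CPM in wild-type and 2101 CPM in 5xFAD, and those of microglia 300.1 and 805 CPM. Sums for Dp16 were 2117 to 3876 CPM for excitatory neurons and 4754 to 7528 CPM for oligodendrocytes. In the double genotype they were 2945 to 3898 and 6684 to 8279 CPM. Their part in the levels of the receptor genes was not tested.

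**Figure D2:**
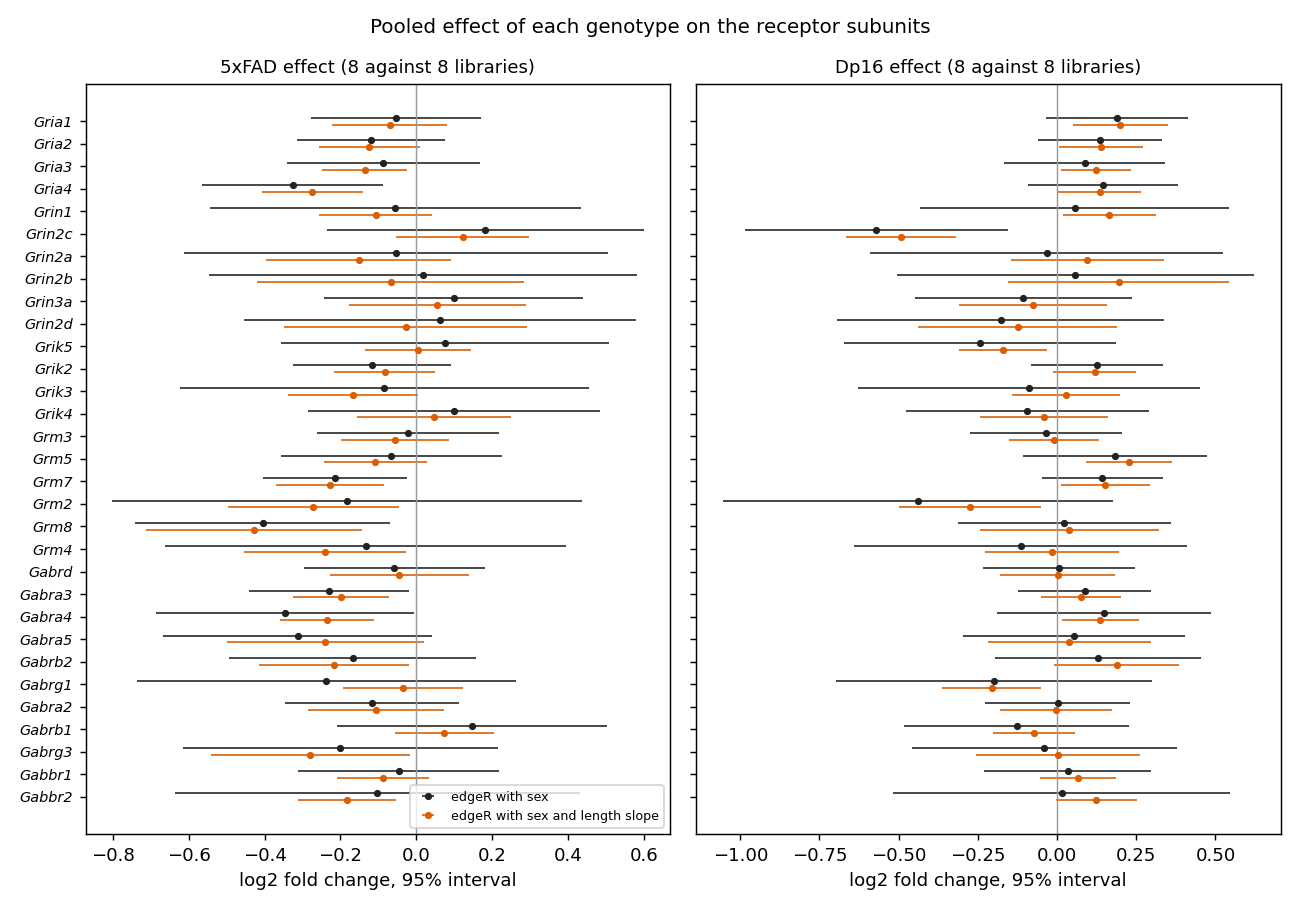
Log2 fold change with its 95% interval of the 31 genes for the pooled 5xFAD effect (left) and the pooled Dp16 effect (right), 8 against 8 libraries, from edgeR with sex as a covariate (black) and with sex and the length slope (orange). Gria4 and Grin2c lie farthest from 0 relative to their intervals in the left and right panel, at −0.33 and −0.57 in the fit without the slope.

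AMPA receptors carry fast excitatory transmission. Gria4 encodes GluA4, a subunit with fast kinetics that is prominent in parvalbumin interneurons, and its level was lower in every 5xFAD library than in every wild-type library. The gene (ENSMUSG00000025892.16) spans 4417896 to 4796234 on chromosome 9, minus strand, of GRCm38. Its level was 106, 111, 154 and 114 CPM in the wild-type libraries, in replicate order here and below, and 107, 127, 143 and 121 in Dp16. It was 75.8, 96.4, 89.4 and 98.03 CPM in 5xFAD and 94.8, 122, 115 and 96.4 in 5xFAD-Dp16. The 5xFAD libraries thus lay wholly below the wild-type ones (1.52% of all genes were lower without overlap), whereas the double genotype overlapped every other group. The log2 fold change of 5xFAD against wild-type was −0.43 ± 0.16 (SE; edgeR adjusted p = 0.404), and the pooled 5xFAD effect was −0.33 ± 0.11 (adjusted p = 0.267). Wild-type replicate 3 held the highest value, and without it the difference of 5xFAD from wild-type was −0.28 ± 0.13 (adjusted p = 0.436). In 5xFAD-Dp16 against Dp16 the log2 fold change was −0.22 ± 0.16 (adjusted p = 0.98).

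The summed level of 7 inhibitory neuron markers was 1097 to 1374 CPM in wild-type, 1129 to 1386 CPM in Dp16, 765 to 1059 CPM in 5xFAD and 1060 to 1278 CPM in 5xFAD-Dp16, so the 5xFAD libraries were lowest there as well. Of the 7 markers 7 were below 0 in 5xFAD against wild-type (median −0.35), 0 were called by edgeR and 3 had an unadjusted p under 0.05. Of all genes, 1.91% were lower at that threshold. The part of these cells in the level of Gria4 was not tested, and in bulk tissue fewer cells of a type and less RNA per cell cannot be told apart. The bases just before the start of Gria4 are shown because it is the member whose 5xFAD and wild-type libraries did not overlap. They are the 250 bases upstream of the RefSeq start on GRCm38.p6, chr9:4796235-4796484, read 5′ to 3′ on the minus strand with each CG in capitals.

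Gria4: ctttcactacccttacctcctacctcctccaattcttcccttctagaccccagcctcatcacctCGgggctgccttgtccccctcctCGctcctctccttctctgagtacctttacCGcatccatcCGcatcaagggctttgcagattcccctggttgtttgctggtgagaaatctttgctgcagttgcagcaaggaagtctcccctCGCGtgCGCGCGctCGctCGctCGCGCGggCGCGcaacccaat

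This stretch held 16 CG steps and 58.8% G and C. Over 32851 such windows of RefSeq genes the medians were 6 CG and 52.4%, and over the 30 windows of the 23 members that were matched they were 9 CG and 61.6%.

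The other AMPA subunits showed smaller differences. Gria1, encoding GluA1, a subunit that is moved into synapses during plasticity, stood at 356, 387, 252 and 309 CPM in wild-type and 376.9, 398, 303 and 340.4 in Dp16. It stood at 275, 306, 269 and 354 CPM in 5xFAD and 340.1, 404, 386 and 306 in 5xFAD-Dp16. The groups overlapped. Its log2 fold change was 0.25 ± 0.15 in 5xFAD-Dp16 against 5xFAD (edgeR adjusted p = 1) and 0.19 ± 0.11 in the pooled Dp16 effect (adjusted p = 1). Gria2, whose edited product keeps AMPA receptors impermeable to calcium, ranged from 253 to 344 CPM over the 16 libraries and Gria3 from 73.5 to 125. All 4 AMPA genes were above 0 in the pooled Dp16 effect (0.09 to 0.19; 46.3% of all genes were above 0). They were below 0 in the pooled 5xFAD effect (−0.33 to −0.05; 45.8% of all genes were above 0). The log2 ratio of Gria1 to Gria2 on the RPKM scale was 0.96 ± 0.17 for wild-type, 1.02 ± 0.20 for Dp16, 1.04 ± 0.12 for 5xFAD and 1.09 ± 0.06 for the libraries with both genotypes (SD over 4 libraries), a range smaller than the wild-type SD.

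NMDA receptors need the Grin1 product together with a Grin2 or Grin3 subunit and pass calcium when glutamate meets depolarization. Grin2c encodes GluN2C, which is best known from cerebellar granule cells and, in the forebrain, from astrocytes and some interneurons. It had the smallest p of the members for Dp16, and its Dp16 libraries all lay below the highest 3 wild-type libraries. The gene (ENSMUSG00000020734.13) lies at 115249169 to 115267243 on chromosome 11, minus strand. Its level was 59.6, 39.9, 24.1 and 49.5 CPM in wild-type and 34.7, 32.8, 19.1 and 24.2 in Dp16. It was 59.1, 35.8, 60.9 and 35.9 CPM in 5xFAD and 42.7, 24.3, 31.1 and 36.4 in 5xFAD-Dp16. Within each background the group with Dp16 had the lower mean, 27.7 ± 7.32 against 43.3 ± 15.1 CPM without the transgenes and 33.6 ± 7.81 against 47.9 ± 13.97 with them (SD, n = 4), while the groups overlapped. The log2 fold change was −0.64 ± 0.28 in Dp16 against wild-type (edgeR adjusted p = 1) and −0.50 ± 0.28 in 5xFAD-Dp16 against 5xFAD (adjusted p = 1). The pooled Dp16 effect was −0.57 ± 0.19 (unadjusted p = 0.0103, adjusted p = 0.864), and −0.68 ± 0.15 without wild-type replicate 3 (adjusted p = 0.0754). In 5xFAD-Dp16 against wild-type the log2 fold change was −0.39 ± 0.28, and leaving out wild-type replicate 3 gave −0.63 ± 0.22, replicate 1 −0.24 ± 0.30 and replicate 4 −0.26 ± 0.30.

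The 5 astrocyte markers summed to 1367 to 1722 CPM in wild-type, 1475 to 1639 CPM in Dp16, 1891 to 2351 CPM in 5xFAD and 1692 to 1958 CPM in 5xFAD-Dp16. In the pooled Dp16 effect 5 of 5 were below 0 (median −0.21), with 0 called by edgeR and 1 at an unadjusted p under 0.05 (2.27% of all genes were lower at it). The part of astrocytes in the level of Grin2c was not tested. Its upstream bases are shown because it is the member called for the duplication once the length slope is a covariate, as described further on. The window is chr11:115267244-115267493 on GRCm38.p6, from RefSeq, minus strand, with each CG in capitals.

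Grin2c: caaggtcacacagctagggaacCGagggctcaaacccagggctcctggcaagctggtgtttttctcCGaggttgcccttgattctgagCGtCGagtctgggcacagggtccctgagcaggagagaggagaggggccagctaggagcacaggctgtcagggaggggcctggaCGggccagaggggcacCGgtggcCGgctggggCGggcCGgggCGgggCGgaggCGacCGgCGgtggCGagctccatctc

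It held 15 CG steps and 68.8% G and C, more than the median of all windows in both respects, and most of the CG steps lay in the part nearest the start.

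The remaining NMDA subunits varied more between replicates than between groups. Grin1 stood at 515, 357, 134 and 399 CPM in wild-type, at 456, 362, 259 and 231 in Dp16, at 381, 266, 306 and 258 in 5xFAD and at 379, 284, 433 and 308 in 5xFAD-Dp16. Wild-type libraries held both the highest and the lowest value. Grin2d, known from interneurons, was the least abundant NMDA subunit per length, with 11.05, 6.77, 4.95 and 9.40 CPM in wild-type and 8.66, 4.92, 3.42 and 5.42 in Dp16. It stood at 9.10, 4.39, 5.94 and 6.89 CPM in 5xFAD and 8.48, 4.34, 10.2 and 6.66 in 5xFAD-Dp16. Its log2 fold change was −0.53 ± 0.34 in Dp16 against wild-type (edgeR adjusted p = 1), with −0.83 when Dp16 replicate 1 was left out, −0.32 when Dp16 replicate 3 was and −0.31 when wild-type replicate 1 was. Its interaction was 0.70 ± 0.48 (adjusted p = 1). With the length slope as a covariate and wild-type replicate 3 left out, both were near 0 beside their SE, at −0.04 ± 0.26 and 0.16 ± 0.33. Grin3a, a glycine-binding subunit that lowers calcium flow, stood at 18.4, 16.2, 9.42 and 15.5 CPM in wild-type, at 14.9, 12.9, 12.2 and 8.79 in Dp16, at 13.8, 11.4, 12.6 and 18.5 in 5xFAD and at 15.2, 12.1, 17.7 and 14.1 in 5xFAD-Dp16. The groups overlapped, and the log2 fold change of Dp16 against wild-type was −0.28 ± 0.23 (adjusted p = 1). Leaving out wild-type replicate 3 gave −0.45, wild-type replicate 1 −0.13 and Dp16 replicate 4 −0.12.

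Grin2a and Grin2b encode the main GluN2 subunits of the forebrain, and the shift from the second to the first marks synapse maturation. Grin2a lies on chromosome 16 (9567898 to 9995560), the chromosome that carries the Dp16 duplication. Unlike Grik1, it was not taken as a gene of the duplicated segment. Its mean was 44.1 ± 10.5 CPM in Dp16 against 56.7 ± 30.2 in wild-type (SD, n = 4). In 5xFAD-Dp16 its mean was 53.4 ± 19.2 CPM, against 43.8 ± 13.1 in 5xFAD. Grin2a ranged from 23.3 to 84.0 CPM over the 16 libraries and Grin2b from 33.0 to 136. The log2 ratio of Grin2a to Grin2b on the RPKM scale was 0.12 ± 0.08 for wild-type, 0.02 ± 0.17 for Dp16, 0.02 ± 0.14 for 5xFAD and −0.05 ± 0.14 for the libraries with both genotypes (SD over 4 libraries). The means of wild-type and of the libraries with both genotypes lay farther apart than the SD of either group, while their ranges, 0.04 to 0.23 and −0.20 to 0.10, overlapped.

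Kainate receptors modulate release and excitability. Grik5, encoding the high-affinity subunit GluK5, stood at 151, 115, 56.9 and 155 CPM in wild-type and 140.3, 89.5, 83.7 and 76.3 in Dp16. It stood at 134, 97.1, 138 and 117 CPM in 5xFAD and 102, 74.5, 119 and 129 in 5xFAD-Dp16. Grik4, encoding the related GluK4, stood at 18.9, 12.3, 7.97 and 17.9 CPM in wild-type, at 16.98, 14.5, 10.97 and 9.80 in Dp16, at 15.8, 13.5, 13.7 and 16.8 in 5xFAD and at 12.02, 11.8, 18.1 and 15.5 in 5xFAD-Dp16. The groups overlapped for both genes. Grik2 ranged from 34.9 to 54.8 CPM and Grik3 from 15.1 to 57.8 over all libraries. In the pooled effects the 4 kainate genes ran from −0.24 to 0.13 for Dp16 and from −0.12 to 0.10 for 5xFAD, with 0 of 4 at an unadjusted p under 0.05. Of all genes, 8.48% reached that threshold for 5xFAD in either direction, and 2.27% were lower at it for Dp16. The triplicated Grik1 stood at 10.05, 9.20, 3.26 and 7.52 CPM in wild-type and 11.3, 13.6, 10.1 and 9.57 in Dp16. It stood at 5.33, 6.71, 6.07 and 7.77 CPM in 5xFAD and 14.3, 9.94, 13.99 and 9.54 in 5xFAD-Dp16. Its pooled Dp16 effect was 0.73 ± 0.20 (edgeR adjusted p = 0.502), above every pooled Dp16 value of the 31 members.

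Among metabotropic glutamate receptors, the group III receptors Grm7 and Grm8, which sit on axon terminals and restrain release, had lower means in 5xFAD than in wild-type and were not called. Grm7 stood at 41.7, 38.7, 32.96 and 35.1 CPM in wild-type and 38.6, 40.7, 38.3 and 37.00 in Dp16. It stood at 29.01, 28.4, 34.3 and 28.97 CPM in 5xFAD and 34.8, 38.4, 37.2 and 30.96 in 5xFAD-Dp16. In 5xFAD 3 of 4 libraries were below all libraries of wild-type and Dp16, and replicate 3 lay within the wild-type range. The log2 fold change was −0.30 ± 0.13 in 5xFAD against wild-type (edgeR adjusted p = 0.591) and −0.21 ± 0.09 in the pooled 5xFAD effect (adjusted p = 0.484). In 5xFAD-Dp16 against 5xFAD it was 0.23 ± 0.13 (adjusted p = 1), and the pooled Dp16 effect was 0.14 ± 0.09 (adjusted p = 1).

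Grm8 stood at 14.8, 19.1, 12.5 and 15.5 CPM in wild-type, at 15.97, 14.02, 14.8 and 12.99 in Dp16, at 12.96, 10.2, 9.78 and 9.74 in 5xFAD and at 8.03, 16.2, 16.8 and 7.60 in 5xFAD-Dp16. The 5xFAD libraries were low, with replicate 1 within the wild-type range, and the 5xFAD-Dp16 libraries fell into a low pair and a high pair. Its log2 fold change was −0.51 ± 0.22 in 5xFAD against wild-type (edgeR adjusted p = 0.634), −0.38 ± 0.22 in 5xFAD-Dp16 against wild-type (adjusted p = 1) and −0.41 ± 0.16 in the pooled 5xFAD effect (adjusted p = 0.398). Against wild-type, the double genotype gave −0.22 without its replicate 4 and −0.24 without its replicate 1, the libraries of the low pair.

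Grm5, the group I receptor that acts beside NMDA receptors, stood at 129.5, 118, 60.5 and 105 CPM in wild-type and 126, 116, 86.5 and 97.6 in Dp16. It stood at 88.3, 82.3, 91.2 and 96.4 CPM in 5xFAD and 97.6, 115, 124 and 111 in 5xFAD-Dp16. Every 5xFAD-Dp16 library was above every 5xFAD library (1.73% of all genes were higher without overlap), with a log2 fold change of 0.32 ± 0.19 (edgeR adjusted p = 1). This gene is described because of that gap, after its values were seen. Grm2, a presynaptic group II receptor, stood at 31.5, 21.9, 6.40 and 33.7 CPM in wild-type and 24.4, 15.8, 16.7 and 10.6 in Dp16. It stood at 22.4, 13.02, 27.1 and 18.1 CPM in 5xFAD and 15.5, 9.67, 20.7 and 14.9 in 5xFAD-Dp16. Its log2 fold change in 5xFAD-Dp16 against wild-type was −0.62 ± 0.41 (adjusted p = 1). Leaving out wild-type replicate 3 gave −0.96, replicate 1 gave −0.40 and replicate 4 gave −0.37. Grm3, the group II receptor of astrocytes and neurons, stood at 100.02, 88.1, 68.99 and 95.8 CPM in wild-type, at 96.4, 90.1, 76.8 and 81.02 in Dp16, at 86.1, 87.8, 106 and 66.99 in 5xFAD and at 79.7, 88.9, 92.7 and 78.4 in 5xFAD-Dp16. Its pooled effects were −0.03 ± 0.10 for Dp16 and −0.02 ± 0.10 for 5xFAD. Grm4, the least abundant of the 6 per length, stood at 21.7, 16.3, 7.30 and 19.03 CPM in wild-type, at 19.8, 10.7, 10.1 and 10.1 in Dp16, at 18.8, 8.38, 13.3 and 9.53 in 5xFAD and at 13.2, 9.08, 17.7 and 14.3 in 5xFAD-Dp16. All 6 metabotropic genes were below 0 in 5xFAD against wild-type (−0.51 to −0.02), where 41.2% of all genes were above 0.

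**Figure D3:**
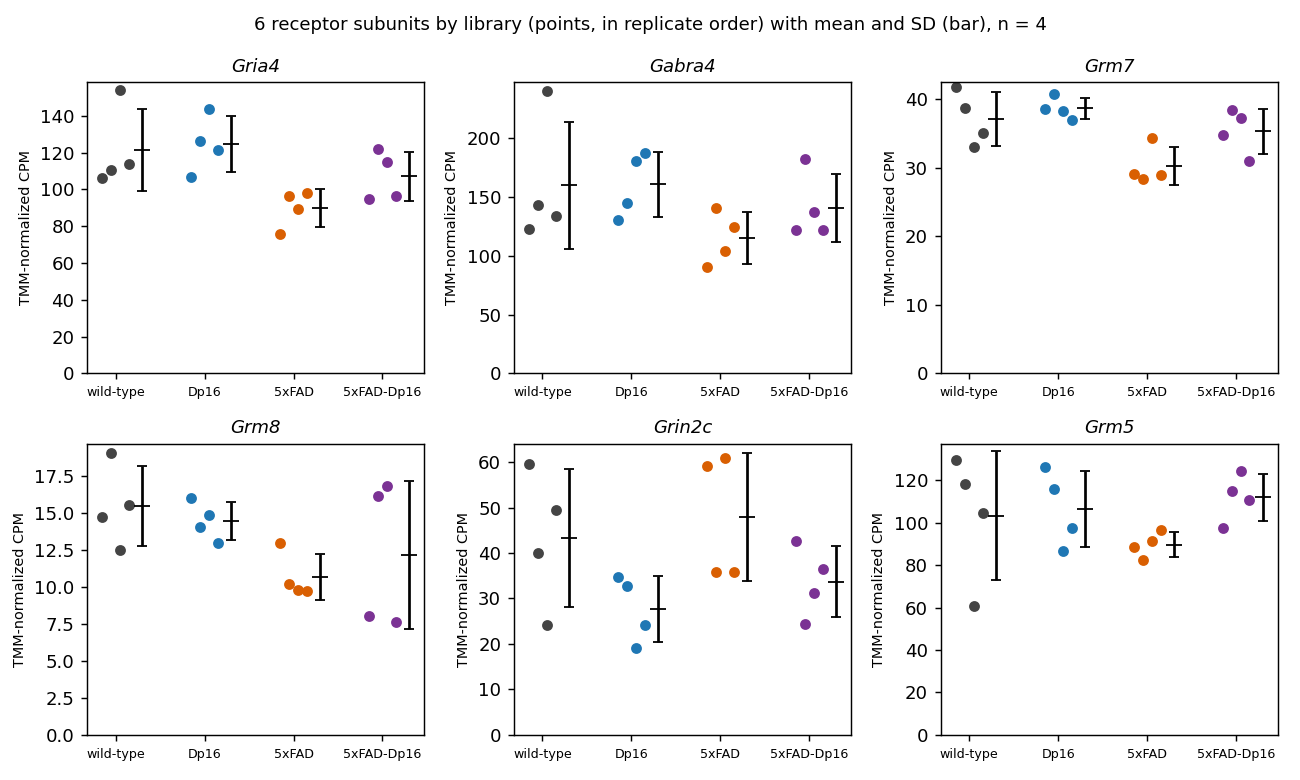
TMM-normalized CPM of Gria4, Gabra4, Grm7, Grm8, Grin2c and Grm5 by library (points, in replicate order) with the group mean and SD (n = 4). All 5xFAD libraries of Gria4 sit below the wild-type ones, at 75.8 to 98.0 against 106 to 154 CPM, and the 5xFAD-Dp16 libraries of Grm8 form a low and a high pair.

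Many GABA-A receptors with the alpha 4 and delta subunits, and many others with the alpha 5 subunit, respond outside synapses and give tonic inhibition. Gabra4 (ENSMUSG00000029211.11, chromosome 5, 71569749 to 71658308, minus strand) had the smallest p of the members in 5xFAD against wild-type once libraries were adjusted for the length slope, and it is described after its values were seen. It stood at 123, 144, 240.1 and 134 CPM in wild-type and 130.2, 145, 181 and 187 in Dp16. It stood at 90.6, 140.4, 104 and 125 CPM in 5xFAD and 122, 183, 137 and 122 in 5xFAD-Dp16. Wild-type replicate 3 was by far the highest library. The log2 fold change was −0.49 ± 0.23 in 5xFAD against wild-type (edgeR adjusted p = 0.675) and −0.35 ± 0.16 in the pooled 5xFAD effect (adjusted p = 0.578). Without wild-type replicate 3 these became −0.19 ± 0.16 and −0.20 ± 0.11 (adjusted p = 0.663 and 0.677). Gabra4 shares 46 exon bases with Gabrb1 on the opposite strand, and no source used here says whether the authors counted by strand, so reads of that stretch may belong to either gene. Longer overlaps of other members are given further on.

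Gabra3, an alpha subunit of some synaptic receptors, stood at 148, 176, 172 and 151 CPM in wild-type and 150.5, 168, 191 and 168 in Dp16. It stood at 117, 152, 127 and 151 CPM in 5xFAD and 144, 171, 151 and 122 in 5xFAD-Dp16. Its pooled 5xFAD effect was −0.23 ± 0.10 (edgeR adjusted p = 0.513), and in 5xFAD-Dp16 against Dp16 it was −0.21 ± 0.14 (adjusted p = 0.98), or −0.13 without Dp16 replicate 3. Gabra5 stood at 55.5, 80.2, 84.4 and 52.1 CPM in wild-type, at 55.3, 83.9, 76.1 and 69.9 in Dp16, at 41.3, 53.3, 48.98 and 80.8 in 5xFAD and at 56.96, 73.1, 58.2 and 40.9 in 5xFAD-Dp16. The groups overlapped, with a log2 fold change of −0.33 ± 0.23 in 5xFAD-Dp16 against Dp16 (adjusted p = 0.98), or −0.21 without 5xFAD-Dp16 replicate 4. Gabrd, which encodes the delta subunit, stood at 91.7, 100.1, 101 and 107 CPM in wild-type and 108, 84.96, 91.99 and 105 in Dp16. It stood at 96.98, 125, 76.7 and 72.96 CPM in 5xFAD and 99.5, 111, 87.4 and 88.2 in 5xFAD-Dp16. Its pooled effects were 0.01 ± 0.11 for Dp16 and −0.06 ± 0.11 for 5xFAD. Gabrg3, the least abundant GABA-A member, stood at 18.9, 11.7, 9.11 and 14.99 CPM in wild-type, at 14.5, 8.91, 10.8 and 9.71 in Dp16, at 10.4, 9.66, 11.6 and 7.51 in 5xFAD and at 8.12, 8.32, 17.1 and 12.9 in 5xFAD-Dp16, with an interaction of 0.56 ± 0.39 (adjusted p = 1) that was 0.33 with wild-type replicate 1 left out and 0.30 with 5xFAD-Dp16 replicate 3 left out. Gabra2 ranged from 30.4 to 50.7 CPM over the 16 libraries, Gabrb1 from 36.6 to 76.0 and Gabrb2 from 45.1 to 95.2. The 9 GABA-A genes ran from −0.35 to 0.15 in the pooled 5xFAD effect, with 8 of 9 below 0 (45.8% of all genes were above 0). They ran from −0.20 to 0.15 in the pooled Dp16 effect.

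GABA-B receptors are obligate pairs in which the Gabbr1 product binds GABA and the Gabbr2 product couples to G proteins. Gabbr1 stood at 803, 729, 475 and 765 CPM in wild-type and 759.8, 748, 530.4 and 584 in Dp16. It stood at 680.01, 598, 631 and 568 CPM in 5xFAD and 707, 655, 748 and 635 in 5xFAD-Dp16. Gabbr2 stood at 241, 136, 66.5 and 219 CPM in wild-type and 207, 155, 128 and 93.5 in Dp16. It stood at 170.4, 102, 162 and 109 CPM in 5xFAD and 141, 104, 203 and 177 in 5xFAD-Dp16. The pooled effects of both genes ran from −0.10 to 0.03, with 0 of 2 at an unadjusted p under 0.05. Of all genes, 8.48% reached that threshold for 5xFAD in either direction, and 2.27% were lower at it for Dp16. The wild-type libraries of Gabbr2 spanned a wider range than those of any other group.

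Much of the spread among replicates was shared by the receptor genes and followed the length slope of the libraries. Wild-type replicate 3, the library of lowest slope, was below the other 3 wild-type libraries in 22 of 31 members, above all 3 in 5 and among them in 4. Its ratio to their mean ran from 0.22 for Grm2 to 2.58 for Gabrg1. Grin1 stood at 134 CPM there against 357 to 515 in the others, and Gabbr2 at 66.5 against 136 to 241. The 5 genes that were higher there were Gria4, Grik2, Gabra4, Gabra5 and Gabrg1. Gabrg1 stood at 35.96, 51.2, 109 and 39.2 CPM in wild-type, at 36.5, 42.4, 58.00 and 72.4 in Dp16, at 37.8, 56.5, 48.9 and 60.1 in 5xFAD and at 43.6, 56.3, 28.7 and 44.3 in 5xFAD-Dp16, so the highest value in each group without the transgenes came from a library of low slope.

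**Figure D4:**
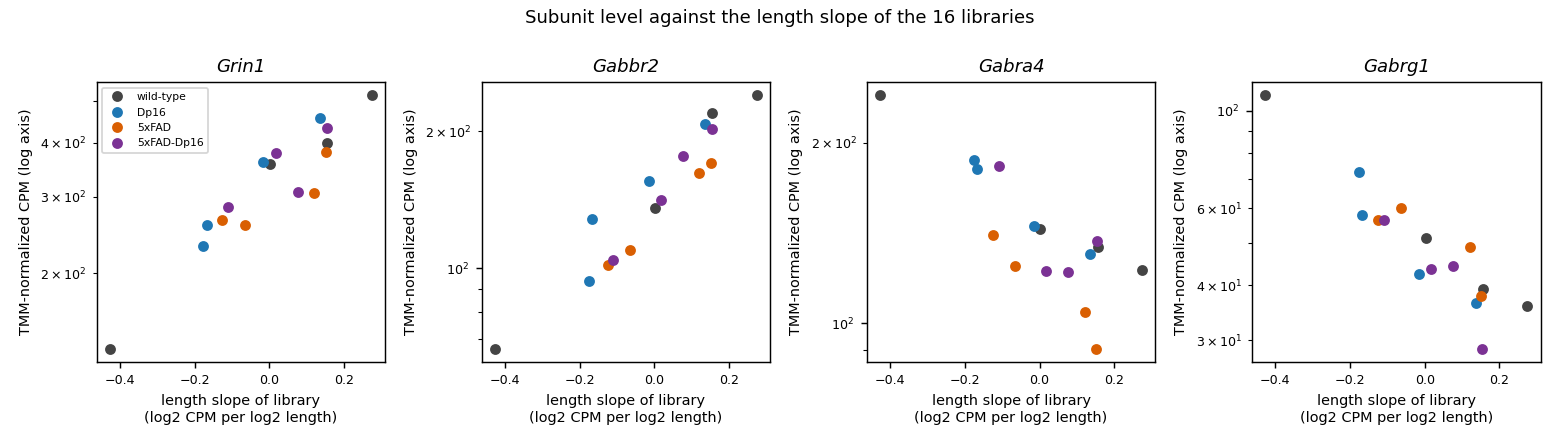
TMM-normalized CPM (log axis) of Grin1, Gabbr2, Gabra4 and Gabrg1 in the 16 libraries against the length slope of each library, coloured by group. Grin1 and Gabbr2 are higher in libraries of higher slope and Gabra4 and Gabrg1 lower. The slope was computed from the same counts.

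Fitted as a covariate, the slope had a coefficient above 0 in 23 of 31 members (74.2%, against 54.5% of 14710 protein-coding genes tested), with a median of 1.22 log2 units per unit of slope against 0.21. The highest were Grm2 (3.34 ± 0.35, SE), Grik3 (2.88 ± 0.26), Gabbr2 (2.88 ± 0.20) and Grin2a (2.80 ± 0.36). The lowest were Gabrg1 (−2.44 ± 0.22), Gabra4 (−1.53 ± 0.17), Gabra5 (−1.17 ± 0.36) and Gria4 (−0.80 ± 0.19). Thus members of a single channel family went opposite ways with the same library measure: of the GABA-A genes, Gabrb1 stood at 1.74 ± 0.19 and its neighbour Gabra4 at −1.53. The members were longer than most genes, with a median of 5750 bases against 3368, and had a median of 47.1% G and C in the transcript against 50.3%. Across the 31 genes the coefficient went with the G and C share (Pearson r = 0.61, Spearman rho = 0.58) more than with log2 length (0.36 and 0.31), whereas across the 14710 protein-coding genes the order was the reverse (0.27 and 0.28 against 0.55 and 0.55). These are correlations across genes of the same libraries, given as a description. The slope was itself computed from gene length over 11864 protein-coding genes. A correlation of the coefficient with length across such genes was therefore built in, and nothing is concluded from the reverse order. Over the 16 libraries the length slope correlated closely with a slope on G and C share (Pearson r = 0.915). A trend with length and a trend with G and C share could therefore hardly be told apart between libraries. In the 15 members with a G and C share of 35.3% to 45.9% the coefficient was above 0 in 9, and in the 16 members with 47.1% to 65.0% in 14.

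**Figure D5:**
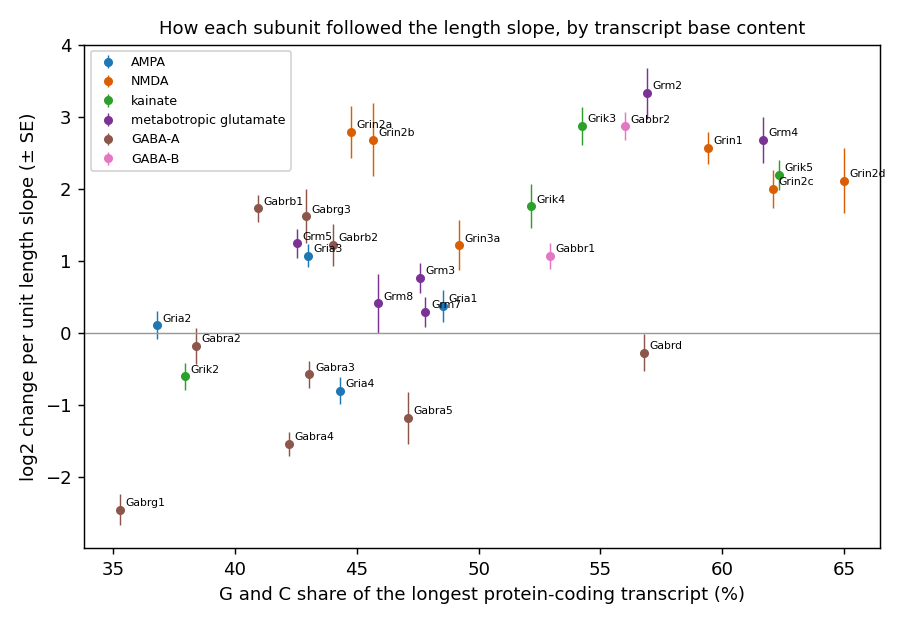
Coefficient of the length slope (log2 units per unit of slope, ± SE) of each of the 31 members against the G and C share of its longest protein-coding transcript, coloured by family. Gabrg1 sits lowest at 35.3% G and C, and Grm2, Grik3 and Gabbr2 sit highest, on the right of the plot. Grin2a and Grin2b stand high on its left.

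With the slope as a covariate the common biological coefficient of variation over all genes went from 0.292 to 0.161, and 4 members were called. In 5xFAD against wild-type Gria4 (−0.41 ± 0.09, edgeR adjusted p = 0.00712) and Gabra4 (−0.42 ± 0.08, adjusted p = 0.00264) fell, 2 of 31 against 1.34% of all genes called lower and 5.34% called in either direction. In the pooled 5xFAD effect Gria4 (−0.27 ± 0.06, adjusted p = 0.00964), Gabra4 (−0.24 ± 0.06, adjusted p = 0.0168) and Grm7 (−0.23 ± 0.07, adjusted p = 0.0494) fell, 3 of 31 against 1.38% of all genes called lower and 6.04% in either direction. Grin2c fell in 5xFAD-Dp16 against 5xFAD (−0.51 ± 0.12, adjusted p = 0.0426; 0.285% of all genes were called lower and 0.695% in either direction) and in the pooled Dp16 effect (−0.49 ± 0.08, adjusted p = 0.00193; 0.427% lower and 1.0% in either direction). With this covariate 0 members were called in Dp16 against wild-type (background 0.251%), in 5xFAD-Dp16 against wild-type (2.06%), in 5xFAD-Dp16 against Dp16 (1.21%) and in the interaction (0 genes of all tested). Over all settings tried the adjusted p of Gria4 ran from 0.000676 to 0.559 and that of Gabra4 from 0.00409 to 0.914 in the pooled 5xFAD effect, that of Grm7 from 0.0207 to 0.858, and that of Grin2c from 0.000682 to 1 in the pooled Dp16 effect. With the slope as a covariate and without wild-type replicate 3, Gria4 in 5xFAD against wild-type (−0.38 ± 0.11, adjusted p = 0.0756), Grm7 in the pooled 5xFAD effect (−0.24 ± 0.07, adjusted p = 0.0605) and Grin2c in 5xFAD-Dp16 against 5xFAD (−0.51 ± 0.12, adjusted p = 0.0584) were not called. Grin2c in the pooled Dp16 effect was called there (−0.50 ± 0.10, adjusted p = 0.0174), as was Gabra3 in the pooled 5xFAD effect (adjusted p = 0.0355). Gria4 (−0.27 ± 0.07, edgeR adjusted p = 0.0217) and Gabra4 (−0.23 ± 0.06, adjusted p = 0.0349) stayed called in the pooled 5xFAD effect. So did Gabra4 in 5xFAD against wild-type (−0.39 ± 0.10, adjusted p = 0.0374). The slope comes from the same counts as the levels, and what it reflects was not tested.

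Genes that work with these receptors were read from 7 lists. Of the other receptor subunit genes, 9 of 16 passed the low-count filter. The 7 that did not were Grin3b, Grm6, Gabra6, Gabre, Gabrp, Gabrr1 and Gabrr3. In edgeR without the slope 0 genes of any of the 7 lists were called in either pooled effect, and the genes named here are at most the 2 of smallest p in a list, where that p was under 0.05. Of 16 auxiliary subunits of glutamate receptors, 1 had an unadjusted p under 0.05 in the pooled 5xFAD effect (8.48% of all genes did, in either direction). It was Cnih3, a cornichon that assists AMPA receptors, at −0.32 ± 0.13 (adjusted p = 0.438), and 12 of the 16 were below 0. Of all genes, 45.8% were above 0 in this effect. In the same effect, of 20 scaffold and kinase genes Homer3, a scaffold of group I metabotropic receptors, stood at 0.35 ± 0.14 (adjusted p = 0.395), with 15 of 20 above 0. Of 10 GABA-A scaffold and assembly genes, 0 had an unadjusted p under 0.05 in either pooled effect.

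Of 7 partners and effectors of GABA-B receptors, Kctd12, an auxiliary subunit that speeds desensitization, stood at 0.44 ± 0.13 in the pooled 5xFAD effect (edgeR adjusted p = 0.151) and was called with the slope (0.40 ± 0.08, adjusted p = 0.0016). Kcnj6, a potassium channel gated by GABA-B receptors whose gene lies, like Grik1, in the segment that Dp16 mice carry in an extra copy, stood at 0.71 ± 0.22 in the pooled Dp16 effect (adjusted p = 0.687) and 0.78 ± 0.15 with the slope (adjusted p = 0.00564). Of 6 genes of GABA synthesis and transport, Gad2, a GABA-producing decarboxylase, stood at 0.27 ± 0.12 in the pooled Dp16 effect (adjusted p = 1). Of 9 genes of glutamate transport and metabolism, the vesicular transporter Slc17a6 stood at −0.41 ± 0.12 (adjusted p = 0.127) and the astrocyte uptake carrier Slc1a3 at 0.27 ± 0.09 (adjusted p = 0.205) in the pooled 5xFAD effect. Glud1, encoding glutamate dehydrogenase, stood at −0.25 ± 0.09 in the pooled Dp16 effect (adjusted p = 0.955). With the slope Slc17a6 (−0.38 ± 0.10, adjusted p = 0.0217) and Slc1a3 (0.28 ± 0.06, adjusted p = 0.00343) were called in the pooled 5xFAD effect. Slc1a3 is also among the 5 astrocyte markers, of which 5 were above 0 in that effect (median 0.27) and Aqp4 was called without the slope (0.50 ± 0.12, adjusted p = 0.0294). Beside these, the 5 microglia markers summed to 265 to 329 CPM in wild-type, 224 to 298 CPM in Dp16, 682 to 1001 CPM in 5xFAD and 408 to 797 CPM in 5xFAD-Dp16, with 5 of 5 called higher in the pooled 5xFAD effect. What share of these differences comes with the number of cells of a type was not tested.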

How the data were processed

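Poly-A RNA was made into strand-specific paired-end libraries, per the labels' protocols. The submitters' processing notes name the aligner HISAT2 2.1.0, the counter HTSeq 0.6.1 and the build GRCm38; the counting settings are not given in the sources used here. The authors deposited raw read counts per gene without normalization, and RPKM values, in which the authors divided the counts by gene length and by the library's total. Coordinates, exon overlaps and G and C shares came from GENCODE M21, by gene identifier. The deposited counts and RPKM values are named for GENCODE M24, so the gene models used in counting may differ from these.

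Counts were tested with edgeR 4.0.16 (R 4.3.3): TMM, filterByExpr with a minimum count of 10, robust quasi-likelihood over all 16 libraries, sex as a covariate, and Benjamini-Hochberg adjustment over 17555 genes. Standard errors come from the F statistic. On simulated data the fit recovered 4.48% of 1.5-fold and 41.8% of 2-fold changes for 5xFAD against wild-type (17246 genes), and 2.99% and 38.8% for Dp16 against wild-type (17237 genes). For the pooled effects it recovered 23.9% and 82.1% for 5xFAD (17255 genes) and 20.9% and 77.6% for Dp16 (17238 genes). The simulated counts varied independently between genes, with a spread set by the mean level. They held no shared length slope and no sex effect, and genes of the lowest levels were not changed. Recovery in the real libraries may therefore differ. The length slope used 11864 protein-coding genes whose mean log2 CPM exceeded 2. Replicates differed by far more than counting noise (chi-square over degrees of freedom 15.8 to 271).

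Described in full are, per pairwise comparison and pooled effect, called members or otherwise the 3 of smallest p; in the interaction the 2 of smallest p; and the members of highest and lowest RPKM of each family. The members and lists were chosen with earlier results of these data known. Some genes of the list of other receptor subunits are not reported here. Alternatives were DESeq2 1.42.0, size factors by RLE, all genes without the low-count filter, a fit without sex, a replicate block, the length slope, the block with the slope, no libraries of the 3 lowest slopes, fits of the 2 groups compared, each library left out, and limma-trend (limma 3.58.1) on log2(RPKM + 0.1) and log2(RPKM + 1). Chosen after seeing these files were a slope on G and C share, this slope with the length slope, and the length slope without wild-type replicate 3.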

Additional observations from a re-analysis of the deposited data

Results flagged for a closer look

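In 5 of 124 gene and group sets, 1 library lay far from the other 3 by Dixon's criterion at the 95% level; chance gives about 1 in 20. Gria3 in Dp16 replicate 1 stood at 116.803 CPM against 95.3 to 98.4 in the other Dp16 libraries, and Grm4 in the same library at 19.781 against 10.1 to 10.7. Grm7 in 5xFAD replicate 3 stood at 34.309 CPM against 28.4 to 29.0, and Grm8 in 5xFAD replicate 1 at 12.956 against 9.74 to 10.2. Gabrb2 in wild-type replicate 3 stood at 45.088 CPM against 86.0 to 95.2 in the other wild-type libraries. Dp16 replicate 1 had the highest length slope of its group (0.14) and wild-type replicate 3 the lowest of all (−0.43).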

How the results depend on the processing

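The number of members called stayed at 0 in every comparison under 24 of 30 alternative settings, among them all 16 that left out 1 library. Without the low-count filter it was 1 for the pooled Dp16 effect (Grin2c; 0.359% of all genes). With the length slope it was 2 for 5xFAD against wild-type (5.34% of all genes), 1 for 5xFAD-Dp16 against 5xFAD (0.695%), 1 for the pooled Dp16 effect (1.0%) and 3 for the pooled 5xFAD effect (6.04%). With the length slope and without wild-type replicate 3 the counts were 1 (2.67% of all genes), 0, 1 (0.503%) and 3 (5.02%) in that order. With the G and C slope they were 2 (3.48%), 0, 1 (0.61%) and 1 (4.03%), and with both slopes 2 (4.6%), 0, 1 (1.05%) and 2 (5.95%). The G and C slope followed the length slope closely over the 16 libraries (Pearson r = 0.915), so these fits are not independent of the length slope fit. The labels do not say whether same-numbered libraries were paired. Deviations of same-numbered libraries from their group means correlated by −0.35 to 0.51 (median 0.04) and others by −0.62 to 0.45 (median −0.02). These deviations also carry the length slope of the libraries, so the correlations cannot settle the pairing. The replicate block alone left all 8 counts at 0. The block with the length slope gave 6 members for 5xFAD against wild-type (8.77% of all genes), 1 for 5xFAD-Dp16 against wild-type (Grm2; 2.53%), 3 for 5xFAD-Dp16 against 5xFAD (2.11%), 2 for the pooled Dp16 effect (2.4%) and 7 for the pooled 5xFAD effect (9.77%).

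Without the 3 libraries of lowest length slope the log2 fold change of Gria4 in 5xFAD against wild-type was −0.25 and that of Gabra4 −0.16, smaller than with all libraries. The median of the members moved by less than the median spread of a log2 fold change under all settings. The log2 ratios of Grin2a to Grin2b and of Gria1 to Gria2 depend on the scale: on raw counts, which are not per length, they were −0.60 and 0.11 in wild-type. The lowest count of any member in any library was 69, for Grin2d. Of the 31 members, 9 share exon bases with a gene on the opposite strand, so their values are uncertain if reads were counted without strand. Grin1 shares 1307 bases with Grin1os, Grin2d 643 with Gm45441 and Grm2 470 with Gm28111. Grm7 shares 130 bases with Gm20387 and Grin2c 91 with Gm25837.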

Other observations

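The split of Grm8 among the 5xFAD-Dp16 libraries followed sex, a pattern noticed after its values were seen and given without a test, since each sex has 2 libraries per group. The females (replicates 1 and 4) stood at 8.03 and 7.60 CPM and the males (replicates 2 and 3) at 16.2 and 16.8. In wild-type the females stood at 14.8 and 12.5 CPM and the males at 19.1 and 15.5. In Dp16 the females stood at 14.02 and 14.8 and the males at 15.97 and 12.99, and in 5xFAD the females at 12.96 and 9.78 and the males at 10.2 and 9.74, so the sexes overlapped in both of these groups.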
